A study of Mus musculus with 16 samples.

Results

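The genes examined here are 9 genes of the melanocyte lineage, Mitf, Sox10, Kit, Ednrb, Mc1r, Tyr, Tyrp1, Dct and Mlana, out of 22367 protein-coding genes of the mouse genome annotation. They were chosen by name because melanocytes and their stem cells share the hair follicle with the epithelial stem cells that were sorted, so that their histone marks test a foreign lineage in hair follicle stem cells (HFSCs) and the presence of melanocytes among the cells sorted beside them. For each gene, the peaks of 12 ChIP-seq lists were taken that lay within 3000 bp of an annotated transcript start or over the gene body. All 9 genes were found in the annotation, and no gene was left out for low values.

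The lists come from skin of CD1 x FVB wild-type mice, which the labels give as male. The study itself states that most of its work used both sexes, with groups matched by sex. EA-HFSCs (early anagen, PD22 to PD25) and LC-HFSCs (late catagen, PD38 to PD44) were sorted as CD34+/α6-integrin+ cells of the bulge, and nEA-HFSCs and nLC-HFSCs as the CD34-/α6-integrin+ cells of the same ages, which the study describes as mainly epidermal and lower outer root sheath cells. Of the 16 samples, 12 carry an antibody against H3K4me3, H3K27me3 or H3K9me3 and 4 are IgG controls of the same populations. Skin of 15 to 20 mice was combined, the chromatin was cut to single nucleosomes with micrococcal nuclease, and the reads of independent experiments were pooled by the authors before peaks were called. Hence each population and mark has 1 list, no replicate check is possible, and no p-value is given for any comparison between lists. No marker of melanocytes was part of the sort as the labels give it, and both parent strains are albino strains whose melanocytes make no pigment.

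H3K4me3 marks the starts of genes that are active or ready to be transcribed, H3K27me3 is laid down by the Polycomb repressive complex over silent developmental genes, and H3K9me3 is a mark of heterochromatin. Melanocytes arise from the neural crest. In these cells Sox10 drives Mitf, the transcription factor at the head of the lineage, and Mitf in turn binds short motifs in the promoters of the pigment enzymes, while the receptors Kit, Ednrb and Mc1r receive signals that the surrounding keratinocytes secrete. Mitf has several alternative promoters spread over its length. The most 3′ of them is the promoter used in melanocytes, and the upstream ones are used in many other tissues.

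The sequence before 5 of the starts is given first, because their base composition differs and, over all genes, goes with H3K4me3 at a start, as the shares below show. Each run holds the 250 bases upstream of an annotated start, 5′ to 3′ on the strand of the gene, from NCBIM37 (mm9), with every CG dinucleotide in capitals. The first start of Mitf and the start of Kit had H3K4me3 peaks, and the start of the transcript Mitf-006, Ednrb and Tyr had none.
Mitf, first start, chr6:97756802-97757051, + strand: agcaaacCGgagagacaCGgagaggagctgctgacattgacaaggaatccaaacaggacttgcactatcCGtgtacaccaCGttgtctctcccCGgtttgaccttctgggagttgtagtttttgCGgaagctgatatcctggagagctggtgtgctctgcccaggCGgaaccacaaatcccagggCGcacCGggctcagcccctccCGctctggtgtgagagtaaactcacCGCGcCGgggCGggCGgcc
Mitf, start of Mitf-006, chr6:97941536-97941785, + strand: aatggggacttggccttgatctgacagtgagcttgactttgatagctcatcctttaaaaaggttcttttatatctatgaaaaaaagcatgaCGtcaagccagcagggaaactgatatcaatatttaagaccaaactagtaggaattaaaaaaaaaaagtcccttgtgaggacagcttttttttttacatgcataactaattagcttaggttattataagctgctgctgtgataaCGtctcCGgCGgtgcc
Kit, chr5:75970691-75970940, + strand: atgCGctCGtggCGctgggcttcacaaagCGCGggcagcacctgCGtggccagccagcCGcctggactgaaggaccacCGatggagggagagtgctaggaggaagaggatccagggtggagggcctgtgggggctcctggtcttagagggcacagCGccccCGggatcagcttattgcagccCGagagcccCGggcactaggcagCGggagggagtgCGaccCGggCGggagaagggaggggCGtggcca
Ednrb, chr14:104243391-104243640, - strand: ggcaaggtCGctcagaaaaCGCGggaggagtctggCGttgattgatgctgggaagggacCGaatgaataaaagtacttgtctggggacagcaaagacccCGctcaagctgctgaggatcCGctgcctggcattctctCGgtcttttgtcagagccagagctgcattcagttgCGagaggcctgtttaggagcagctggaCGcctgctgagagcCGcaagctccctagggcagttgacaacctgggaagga
Tyr, chr7:94641944-94642193, - strand: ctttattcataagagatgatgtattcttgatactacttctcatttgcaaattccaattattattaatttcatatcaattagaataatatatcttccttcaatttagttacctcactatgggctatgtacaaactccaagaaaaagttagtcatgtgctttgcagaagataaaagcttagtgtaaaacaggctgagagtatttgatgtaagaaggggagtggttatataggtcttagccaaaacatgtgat
There were 15 CG dinucleotides before the first start of Mitf, 17 before Kit and 11 before Ednrb, against 4 before Mitf-006 and 0 before Tyr. Over the 1001 bp centred on each gene start, the ratio of observed to expected CpG was 0.664 at Mitf, 0.675 at Kit and 0.595 at Ednrb, where the median over all gene starts was 0.549. At the other 6 members the ratio was below 0.4, as it was at 40.1% of all gene starts. It was 0.325 at Sox10, 0.275 at Dct, 0.166 at Tyr, 0.162 at Mlana, 0.157 at Mc1r and 0.125 at Tyrp1. At the start of Mitf-006 it was 0.416.

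A second set of sequences shows the letters CATGTG, an E-box that Mitf can bind, in the promoters of the pigment genes and Mc1r. Capitals mark the E-box, and in these 4 fragments it is preceded by a t, which makes up TCATGTG, the core of the motif called the M-box.
Tyr, chr7:94642030-94642051, - strand: aagttagtCATGTGctttgcag
Tyrp1, chr4:80480063-80480084, + strand: gagggagtCATGTGctgcctag
Dct, chr14:118451605-118451626, - strand: cttagggtCATGTGctaacaaa
Mc1r, chr8:125930923-125930944, + strand: atgcccatCATGTGgccaccct
The Tyr, Dct and Mc1r motifs began at positions -100, -150 and -51 from the gene start, and that of Tyrp1 at position -63 from its second annotated start. Searched on both strands from 250 bp before to 50 bp after the gene start, CATGTG was present in 12.1% of all promoters and in 4 of 9 members, and TCATGTG, which contains it, in 3.4% of all promoters and in the same 4 members. The promoters of Mitf, Sox10, Kit, Ednrb and Mlana held neither in this window. These matches describe letters and not bound sites, and the H3K4me3 peak described below at Dct did not reach its motif.

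The 12 lists differed greatly in length. The H3K4me3 lists held 14718 to 24498 peaks, whereas the H3K27me3 lists held 1909 (LC-HFSCs) to 25534 (EA-HFSCs) and the H3K9me3 lists 1414 (LC-HFSCs) to 42277 (EA-HFSCs). A peak's score is the negative log10 of its MACS p-value multiplied by 10, and the lowest scores were 50.0 for H3K4me3 and 40.0 for the other marks. Scores depend on read number and background, so they were used to rank peaks within a list and not to compare heights between lists. The exact read depth of each list is unknown here, and the study states that H3K27me3 and H3K9me3 were not sequenced to saturation. A missing peak is therefore not evidence that a mark was absent. The study also states that LC-HFSCs had more reads than EA-HFSCs, and it does not put their fewer peaks down to read number. By immunofluorescence it reports lower levels of the marks in bulge cells at late catagen than at early anagen. As a check of the labels, H3K4me3 lay at 7 of 7 bulge genes in both HFSC lists and at 6 of 7 in both non-HFSC lists, in which Cd34, the sorting marker, was the one without a peak, and at 6 of 6 basal keratinocyte genes in every list. Over all genes the share was 55.9 to 62.4%, so that in H3K4me3 calls Cd34 alone of these genes differed between HFSC and non-HFSC lists. H3K27me3 lay at 0 of 7 bulge genes in EA-HFSCs (all genes 14.0%) and LC-HFSCs (3.73%). It lay at 4 of 7 in nEA-HFSCs (Cd34, Lgr5, Sox9 and Lhx2, all genes 16.8%). In nLC-HFSCs it lay at 5 of 7, these and Tcf7l1 (all genes 12.9%).

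H3K4me3 was found at few of the melanocyte genes. In EA-HFSCs a peak lay at a start of 3 of the 9 genes (Mitf, Kit and Dct), where 62.4% of all genes had one. LC-HFSCs had a peak at 2 (Mitf and Dct, all genes 55.9%), nEA-HFSCs at 3 (Mitf, Kit and Dct, all genes 61.7%) and nLC-HFSCs at Mitf alone (all genes 58.8%). The members therefore lay below the background in every list. Mitf was the only member with H3K4me3 at a start in all 4 populations (54.9% of all genes), and 6 members had it in none (Sox10, Ednrb, Mc1r, Tyr, Tyrp1 and Mlana, against 35.9%). No member had H3K4me3 in a non-HFSC list without having it in an HFSC list, a pattern of 1.52% of all genes, nor in an HFSC list without a non-HFSC list (1.99%).

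These shares differed with base composition. Among genes with a CpG ratio under 0.4, H3K4me3 lay at a start of 20.7% in EA-HFSCs, 15.9% in LC-HFSCs, 20.9% in nEA-HFSCs and 18.4% in nLC-HFSCs. The 6 CpG-poor members had it at 1 gene (Dct) in the first 3 of these lists and at none in nLC-HFSCs, which is close to the share of such genes. Among genes with a ratio of 0.4 or more, 90.4% had H3K4me3 in EA-HFSCs, 82.7% in LC-HFSCs, 88.9% in nEA-HFSCs and 85.8% in nLC-HFSCs. Of the 3 members in this class, Mitf had it in all 4 lists, Kit in 2 and Ednrb in none.

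**Figure D1:**
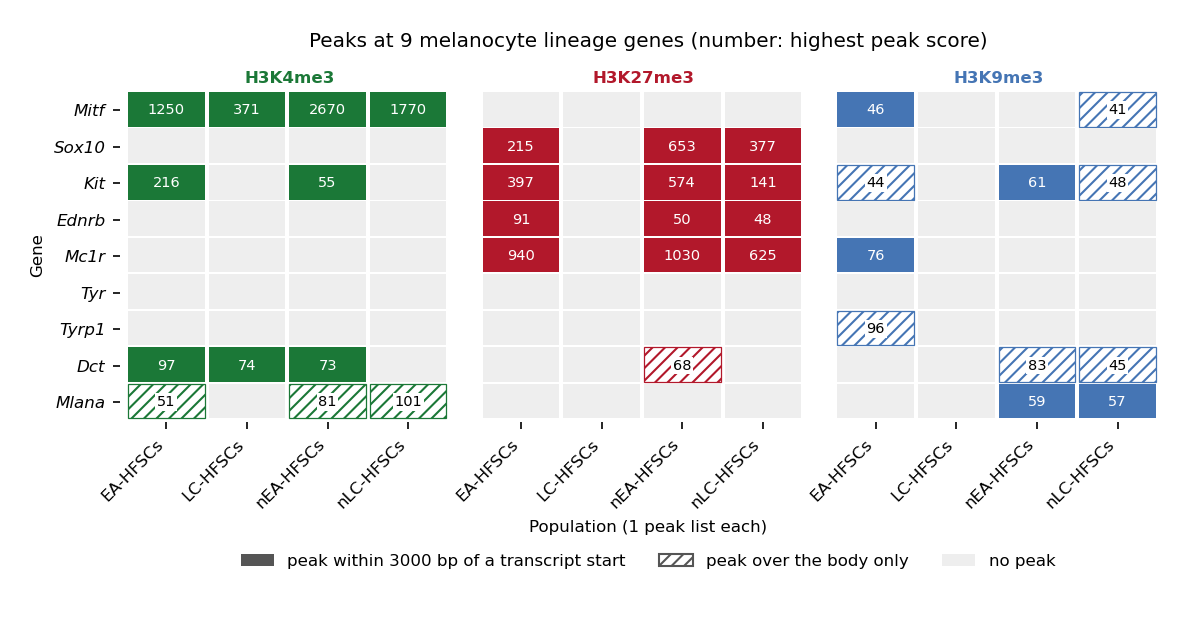
Each row is a gene and each column a peak list, grouped by mark; filled cells have a peak within 3000 bp of a transcript start, hatched cells a peak over the gene body only, and the number is the highest peak score of that kind in that list. Mitf is filled in all 4 H3K4me3 columns, Sox10, Kit, Ednrb and Mc1r are filled in 3 of the 4 H3K27me3 columns, the LC-HFSC columns for H3K27me3 and H3K9me3 are empty, and the row of Tyr is empty throughout.

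**Figure D2:**
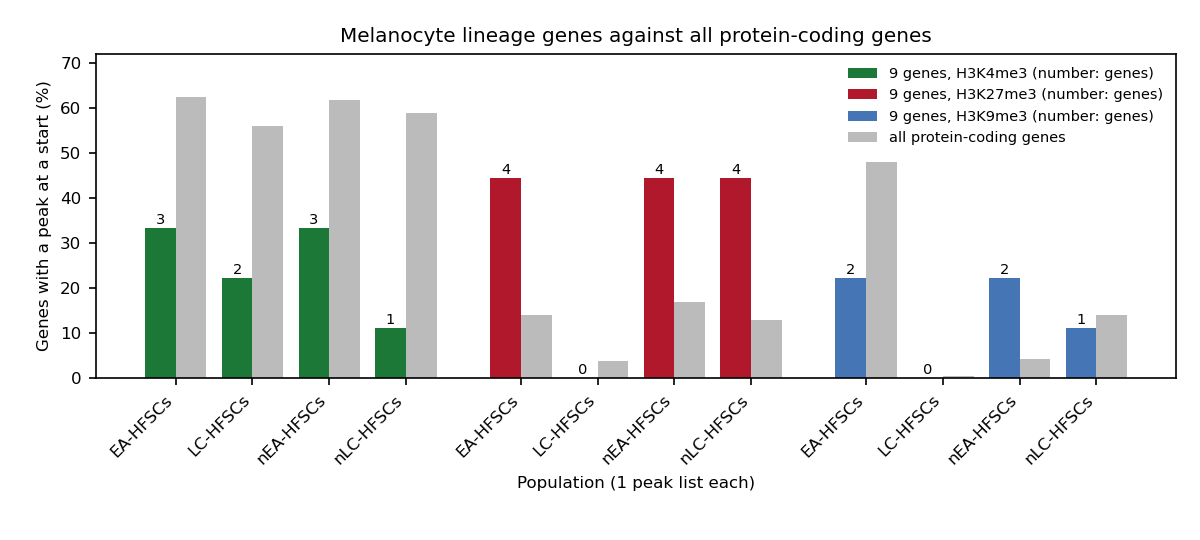
Coloured bars give the percentage of the 9 melanocyte lineage genes with a peak at a start, with the number of genes above, and grey bars the percentage of all 22367 protein-coding genes, for each of the 12 lists. The coloured bars are below the grey ones for H3K4me3 in every population and above them for H3K27me3 in every population but LC-HFSCs, where 0 of 9 genes had a peak.

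Mitf, the transcription factor, lies at chr6:97757052-97971352 on the + strand of mm9, and its 214 kb hold 7 annotated starts. An H3K4me3 peak covered the first start in every list, with a score of 1250 and a width of 3.58 kb in EA-HFSCs, 371 and 2.83 kb in LC-HFSCs, 2670 and 2.20 kb in nEA-HFSCs, and 1770 and 2.26 kb in nLC-HFSCs. In nEA-HFSCs a further peak of 0.757 kb with a score of 52.9 followed it. Within their lists these peaks outscored 71.4%, 74.5%, 83.2% and 77.1% of all H3K4me3 peaks, so that Mitf stood in the upper part of each. Such peaks were nearly always shared between stages: of the EA-HFSC peaks scoring within 10% of that of Mitf, 99.2% were overlapped by an LC-HFSC peak.

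The other Mitf starts, which lie 123, 131, 134 and 185 kb downstream of the first, had no peak of any of the 12 lists within 3000 bp. The last pair of starts includes that of Mitf-006, the most 3′ coding transcript, and the nearest H3K4me3 peak was 113 kb away from it in each of the 4 populations. By its position the start of Mitf-006 is taken to correspond to the melanocyte promoter, although the annotation does not name it so. Thus H3K4me3 at Mitf was seen at the first start and not at the starts farther downstream.

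A second H3K4me3 peak lay within an intron of Mitf about 20 kb from the first start, in all 4 lists and with no annotated start within 3000 bp. It was 4.58 kb wide in EA-HFSCs, with a score of 1950, and 4.82 kb wide in LC-HFSCs, with a score of 856. In nEA-HFSCs it was split into peaks of 1.95 and 0.594 kb with scores of 244 and 61.7, and in nLC-HFSCs it was 1.95 kb wide with a score of 224. Its place within the lists differed in the same way: it outscored 87.5% of the peaks in EA-HFSCs and 97.8% of those in LC-HFSCs, where it ranked 329 of 14718, but 41.7% and 33.3% in nEA-HFSCs and nLC-HFSCs. In both HFSC lists it stood above the peak at the first start, and in both non-HFSC lists below it. The covered length in the HFSC list with less of it was 1.8 times that in the non-HFSC list with more. Of 13436 H3K4me3 loci with a peak in all 4 populations, 0.558% had a ratio at least as large, and the median ratio was 0.956. This site was singled out after its values had been seen.

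**Figure D3:**
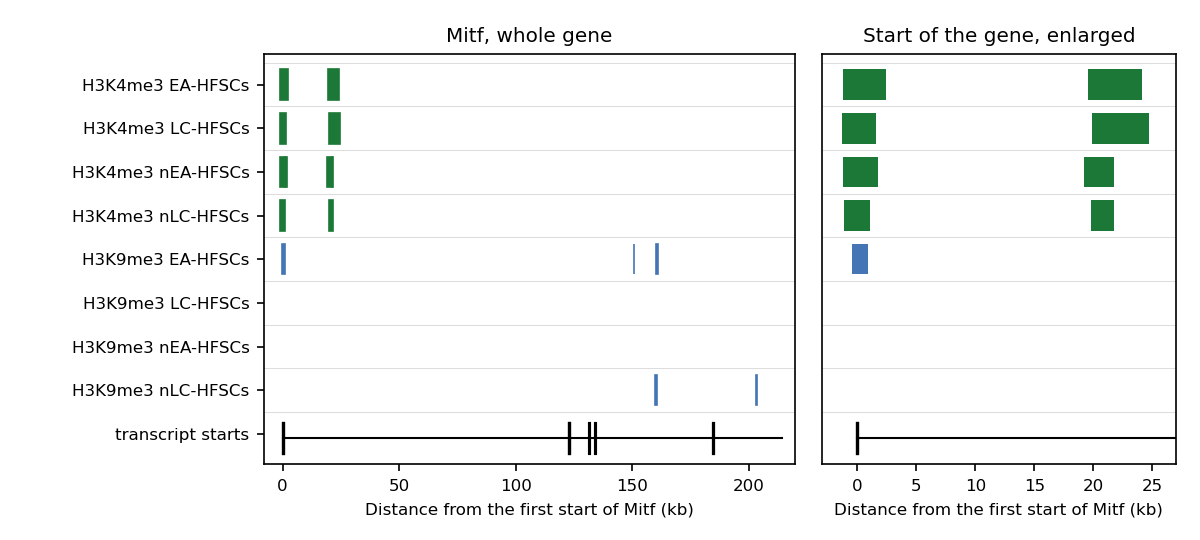
Peaks of H3K4me3 (green) and H3K9me3 (blue) along Mitf, in kb from its first annotated start, with a row for each list and black ticks for the annotated transcript starts; the left panel shows the whole gene and the right panel enlarges its 5′ part. All 4 H3K4me3 rows have a block at the first start and another about 20 kb downstream that is longer in the HFSC rows, and no green block lies near the starts at 123 to 185 kb; Mitf had no H3K27me3 peak.

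Peaks of H3K9me3 at Mitf were few. A peak with a score of 45.7 covered the first start in EA-HFSCs, and peaks of 64.6 and 52.4 lay in introns 151 and 160 kb downstream. They outscored 25.3%, 65.3% and 45.6% of their list. In nLC-HFSCs, peaks of 40.9 and 40.1 lay 160 and 203 kb downstream and outscored 6.53% and 0.521% of their list, and LC-HFSCs and nEA-HFSCs had none.

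Sox10, the neural crest transcription factor upstream of Mitf, lies at chr15:78985343-78994920 on the - strand. It carried H3K27me3 and no H3K4me3. The H3K27me3 peak over its start was 8.46 kb wide with a score of 215 in EA-HFSCs, 11.0 kb wide with a score of 653 in nEA-HFSCs and 5.62 kb wide with a score of 377 in nLC-HFSCs, where smaller peaks of 53.2 and 45.9 followed. These peaks covered 68.2%, 82.0% and 62.4% of the gene body. In LC-HFSCs the nearest H3K27me3 peak was 336 kb from the gene. The nearest H3K4me3 peak was 21.6 to 21.9 kb from the gene start in every list, and no list had an H3K9me3 peak at the gene.

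Among the receptors, Kit, which binds the stem cell factor Kitl and lies at chr5:75970941-76052747 on the + strand, was the only member with H3K4me3 and H3K27me3 at the same start. In EA-HFSCs the H3K4me3 peak had a score of 216 and a width of 1.88 kb, and it lay within an H3K27me3 peak of 7.48 kb with a score of 397. A further H3K27me3 peak with a score of 126 lay upstream. In nEA-HFSCs the H3K4me3 peak was small, with a score of 55.3 and a width of 0.781 kb, and the H3K27me3 peak around it had a score of 574 and a width of 6.42 kb. The double call at Kit was lost in nEA-HFSCs when scores of at least 100 were required, and in both populations when the lists of each mark were cut to equal length. Both marks at the same start were found at 8.52% of all genes in EA-HFSCs and at 10.3% in nEA-HFSCs. In cells sorted as a group, both marks on the same nucleosomes cannot be told apart from each mark in a different share of the cells.

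Neither late catagen list had both marks at Kit, a combination carried by 1.14% of all genes in LC-HFSCs and 6.17% in nLC-HFSCs. LC-HFSCs had no peak of any mark at the Kit locus, with the nearest H3K4me3 peak 321 kb from the gene. In nLC-HFSCs the H3K27me3 peak was present, with a score of 141 and a width of 1.89 kb, and H3K4me3 was not called. H3K4me3 in both early anagen lists and in neither late catagen list was found at 1.88% of all genes. Peaks of similar score were often missing in late catagen. Of the EA-HFSC H3K4me3 peaks scoring within 10% of that of Kit, 45.2% were overlapped in LC-HFSCs. Of such nEA-HFSC peaks 11.8% were overlapped in nLC-HFSCs. H3K9me3 at Kit consisted of scattered peaks with scores of 40.5 to 60.7, of which the highest, in nEA-HFSCs, lay at the start of a non-coding transcript 70.8 kb into the gene.

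Ednrb, the receptor for endothelins at chr14:104213842-104243390 on the - strand, had H3K27me3 over its start at low scores. They were 91.2 in EA-HFSCs with a width of 5.91 kb, 49.7 in nEA-HFSCs with 2.31 kb, and 48.0 in nLC-HFSCs with 1.91 kb. The EA-HFSC peak was thus more than double the width of the others, although its score outranked only 64.0% of its list. The nearest H3K4me3 peak was 54.5 kb from the gene in EA-HFSCs and 160 to 163 kb in the other lists. Of all genes with a CpG ratio of 0.4 or more, 82.7 to 90.4% had H3K4me3 at a start, as given above.

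Mc1r, the receptor for α-melanocyte-stimulating hormone at chr8:125930982-125934642 on the + strand, is a gene of 3.66 kb with a start poor in CpG. It overlapped the highest-scoring H3K27me3 peaks of any member, with scores of 940 in EA-HFSCs (6.90 kb wide), 1030 in nEA-HFSCs (8.64 kb) and 625 in nLC-HFSCs (6.82 kb). All 3 peaks also covered a start of the neighbouring gene Tubb3, a neuronal tubulin, and only the nEA-HFSC peak covered the start of Mc1r and its whole body. The EA-HFSC and nLC-HFSC peaks began 1.28 and 0.843 kb downstream of it and covered 65.1% and 77.0% of the gene. When at least 50% of a peak had to lie within 3000 bp of the start, Mc1r lost all 3 calls. The mark at Mc1r and at Tubb3 cannot be told apart here. In EA-HFSCs H3K9me3 peaks of 75.8 and 162 lay over the 3′ end of Mc1r and over the start of Tubb3.

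**Figure D4:**
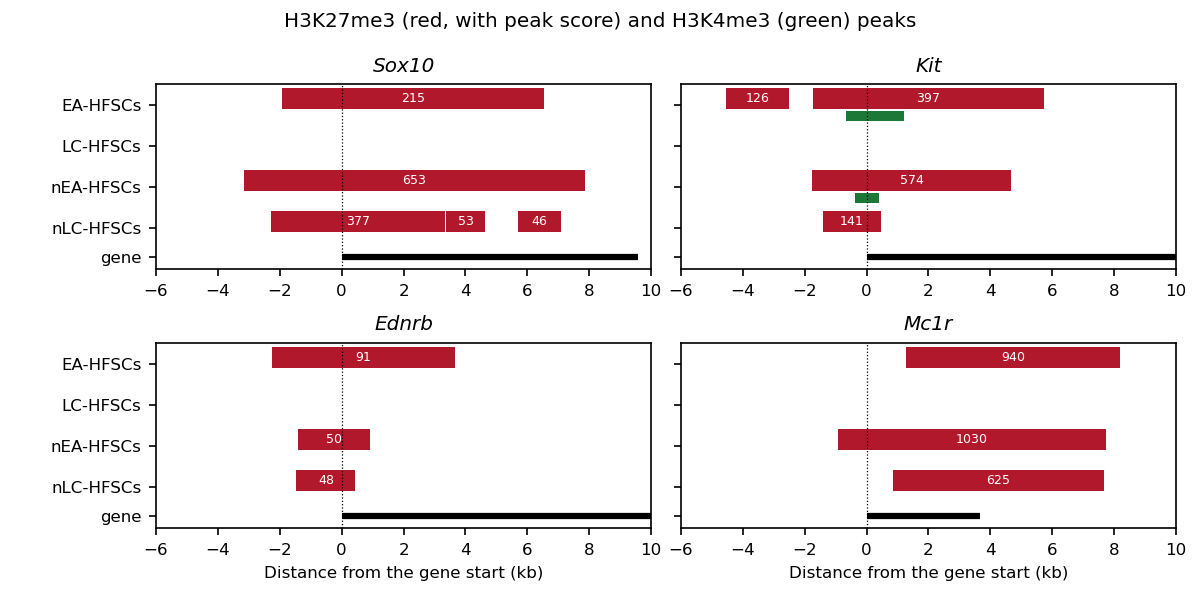
H3K27me3 peaks (red, with their scores) and H3K4me3 peaks (green) at Sox10, Kit, Ednrb and Mc1r, in kb from the gene start in the direction of transcription, with a row for each population and the gene as a black bar that runs off the panel for Kit and Ednrb. Red blocks lie at all 4 genes in EA-HFSCs, nEA-HFSCs and nLC-HFSCs and at none in LC-HFSCs, those of Mc1r extend beyond the end of the gene, and green blocks appear at Kit in the early anagen rows.

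H3K27me3 was at a start of 4 of the 9 members in EA-HFSCs (all genes 14.0%), 4 in nEA-HFSCs (16.8%) and 4 in nLC-HFSCs (12.9%), each time Sox10, Kit, Ednrb and Mc1r, and at 0 in LC-HFSCs (3.73%). The pattern of these 4 genes, present in EA-HFSCs, nEA-HFSCs and nLC-HFSCs and not in LC-HFSCs, was shown by 6.14% of all genes. Among CpG-poor genes, 9.89% had H3K27me3 in EA-HFSCs, 11.4% in nEA-HFSCs and 7.56% in nLC-HFSCs, and of the 6 CpG-poor members 2 had it in each of these lists, Sox10 and Mc1r. In LC-HFSCs 1.54% of such genes had it. Among CpG-rich genes the shares were 16.8% in EA-HFSCs, 5.19% in LC-HFSCs, 20.5% in nEA-HFSCs and 16.5% in nLC-HFSCs, and of the 3 CpG-rich members Kit and Ednrb had it in all but LC-HFSCs. No member had H3K27me3 in a non-HFSC list and in no HFSC list (5.84% of all genes) or in an HFSC list and in no non-HFSC list (2.16%).

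The missing peaks in LC-HFSCs must be read against the length of that list. Of all genes with H3K27me3 at a start in EA-HFSCs, 26.1% had it in LC-HFSCs, compared with 0 of the 4 members. From nEA-HFSCs to nLC-HFSCs 71.2% of all genes kept it, compared with 4 of the 4 members. Of the EA-HFSC peaks scoring within 10% of the peak at the member, an LC-HFSC peak overlapped 50.5% for Mc1r, 22.3% for Kit, 12.3% for Sox10 and 2.0% for Ednrb. The corresponding shares from nEA-HFSCs to nLC-HFSCs were 100% for Mc1r, 99.7% for Kit, 100% for Sox10 and 18.5% for Ednrb. Loss in LC-HFSCs was therefore the usual outcome for peaks scoring like those of Sox10, Kit and Ednrb. The Mc1r peak had a score at which about as many peaks were kept as lost. For the non-HFSCs, Ednrb kept a peak where most peaks of similar score were not kept. When each list was cut to its 1909 highest-scoring peaks, the length of the LC-HFSC list, H3K27me3 stayed at Mc1r in EA-HFSCs, at Sox10, Kit and Mc1r in nEA-HFSCs, and at Sox10 and Mc1r in nLC-HFSCs.

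The pigment enzymes Tyr, Tyrp1 and Dct had no H3K27me3 at a start in any population, as was the case for 80.1% of all genes. Tyr, which catalyses the first steps of melanin synthesis, lies at chr7:94574910-94641943 on the - strand and had no peak of any list at a start or over its 67.0 kb. The same was true of 22.8% of all genes, but of 3.08% of the genes that are at least as long. The nearest H3K4me3 peak was 179 kb from the gene in both early anagen lists and 784 kb in both late catagen lists, and the nearest H3K27me3 peak was 635 kb away in EA-HFSCs. An H3K9me3 peak lay 11.0 kb from the gene in EA-HFSCs. Tyr, Tyrp1 and Mlana had neither H3K4me3 nor H3K27me3 at a start in any population, which was true of 29.6% of all genes. Tyrp1, a related enzyme at chr4:80480027-80497623 on the + strand, had a single peak in the 12 lists, of H3K9me3 in an intron in EA-HFSCs, with a score of 96.3 and a width of 1.05 kb.

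Dct, the dopachrome tautomerase at chr14:118412014-118451468 on the - strand, was the only pigment enzyme with H3K4me3. Its peak began 0.29 kb downstream of the start in EA-HFSCs (score 97.3, width 1.47 kb), 0.136 kb downstream in LC-HFSCs (73.5, 1.49 kb) and 0.565 kb downstream in nEA-HFSCs (73.4, 1.18 kb), and was not called in nLC-HFSCs, where the nearest lay 36.0 kb from the start. The middle of the peak was in an intron in all 3 lists. These peaks were weak, outscoring 19.1%, 11.4% and 14.4% of their lists, and all 3 calls were lost when a score of at least 100 was required. H3K4me3 in these 3 lists and not in nLC-HFSCs was found at 0.55% of all genes. Of the EA-HFSC peaks scoring within 10% of that of Dct, 15.3% were overlapped in LC-HFSCs, as the Dct peak was, and of such nEA-HFSC peaks 19.3% were overlapped in nLC-HFSCs, as the Dct peak was not. Within the gene body, nEA-HFSCs had an intronic H3K27me3 peak of 67.5, and H3K9me3 peaks of 82.8 in nEA-HFSCs and 44.8 in nLC-HFSCs overlapped each other 19.9 kb from the start.

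Mlana, a melanosome protein at chr19:29772411-29782938 on the + strand, had H3K4me3 at its 3′ end and not at its start. These peaks had scores of 50.7 in EA-HFSCs, 81.1 in nEA-HFSCs and 101 in nLC-HFSCs, began 9.81 to 9.88 kb from the start and were about 1 kb wide. LC-HFSCs had none. H3K9me3 peaks of 59.3 in nEA-HFSCs and 56.8 in nLC-HFSCs lay upstream, with their nearer ends 2.21 and 2.92 kb before the start, so that both counted within the window but neither touched the gene.

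H3K9me3 showed no common pattern over the members. At a start it was found at 2 members in EA-HFSCs (Mitf and Mc1r, all genes 47.9%), 0 in LC-HFSCs (0.505%), 2 in nEA-HFSCs (Kit and Mlana, 4.14%) and 1 in nLC-HFSCs (Mlana, 14.1%). Mitf and Mc1r had it in an HFSC list and in no non-HFSC list, as did 35.6% of all genes, and Kit and Mlana in a non-HFSC list and in no HFSC list, as did 3.97%. In EA-HFSCs it was more frequent at CpG-rich starts, 68.9% against 16.7% at CpG-poor starts, and 1 of the 3 CpG-rich and 1 of the 6 CpG-poor members had it. No H3K9me3 peak at a member's start reached a score of 100.

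Counted over gene bodies instead of starts, H3K4me3 peaks lay over 4 members in EA-HFSCs (all genes 63.1%), 2 in LC-HFSCs (56.0%), 4 in nEA-HFSCs (62.2%) and 2 in nLC-HFSCs (59.1%), and the genes added to those with a peak at a start were Mlana in 3 lists. H3K27me3 peaks lay over 4 (14.7%), 0 (3.81%), 5 (17.0%) and 4 (13.4%) members in the same order, with Dct added in nEA-HFSCs. H3K9me3 peaks lay over 4 members in EA-HFSCs (Mitf, Kit, Mc1r and Tyrp1, all genes 51.1%), 0 in LC-HFSCs (1.46%), 2 in nEA-HFSCs (Kit and Dct, 13.4%) and 3 in nLC-HFSCs (Mitf, Kit and Dct, 22.2%).

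Other genes of pigment cells gave a frame for these values. Of 11 further melanosome and pigment genes, H3K4me3 lay at a start of 7 in EA-HFSCs (all genes 62.4%), 6 in LC-HFSCs (55.9%), 7 in nEA-HFSCs (61.7%) and 6 in nLC-HFSCs (58.8%). These counts lay near the shares of all genes. Rab38, Rab27a, Mlph, Myo5a and Mreg, which serve vesicle transport, and Pmel had it in every list, and the Pmel peaks also covered a start of its neighbour Cdk2. The pigment cell transporters Slc45a2, Oca2 and Slc24a5 had it in none. Gpr143, a receptor of the melanosome, had a peak in EA-HFSCs alone (score 65.2), and Trpm1, an ion channel, in nEA-HFSCs alone (score 217). H3K27me3 was at 1 of the 11 in EA-HFSCs (Rab27a, all genes 14.0%), at 1 in nEA-HFSCs (Mlph, 16.8%) and at 0 in LC-HFSCs (3.73%) and nLC-HFSCs (12.9%). H3K9me3 was at 6 of the 11 in EA-HFSCs (all genes 47.9%) and at 0 in the other lists (0.505 to 14.1%).

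Among 8 other transcription factors and receptors that act in melanocyte development, H3K4me3 was at 8 in EA-HFSCs and at 5 in each other list (Tfap2a, Snai2, Sox5, Lef1 and Erbb3). All 8 had a CpG ratio of 0.4 or more, a class with H3K4me3 at 90.4% of genes in EA-HFSCs and 82.7 to 88.9% in the other lists. Over all genes the share was 55.9 to 62.4%. The 3 that had it in EA-HFSCs alone were Pax3, Foxd3 and Zeb2, with scores of 69.5, 59.4 and 474. H3K27me3 was at 5 of the 8 in EA-HFSCs (all genes 14.0%), nEA-HFSCs (16.8%) and nLC-HFSCs (12.9%), each time Pax3, Foxd3, Sox5, Lef1 and Zeb2. In LC-HFSCs it was at 2 (Foxd3 and Zeb2, all genes 3.73%). H3K9me3 was at 8 in EA-HFSCs (all genes 47.9%), 0 in LC-HFSCs (0.505%), 1 in nEA-HFSCs (Pax3, 4.14%) and 5 in nLC-HFSCs (Pax3, Foxd3, Snai2, Sox5 and Zeb2, 14.1%). Among CpG-rich genes the share was 68.9% in EA-HFSCs and 19.6% in nLC-HFSCs. In EA-HFSCs 5 of 6 basal keratinocyte genes also had it, so it was not particular to these regulators. Of the ligands, Kitl had H3K4me3 in all 4 lists, with scores of 1650, 534, 1360 and 770 in EA-HFSCs, LC-HFSCs, nEA-HFSCs and nLC-HFSCs, while Edn3 and Pomc had it in none. H3K27me3 was at Kitl in nEA-HFSCs and nLC-HFSCs, with scores of 313 and 135, and at Pomc in EA-HFSCs, with a score of 42.1. Asip could not be matched by name and was not analysed here.

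Genes of other cells that could be sorted with the epithelium were read for H3K4me3 in the same way. In all 4 lists 0 of 4 mast cell genes and 0 of 6 leukocyte genes had a peak at a start, and of 5 endothelial genes Kdr alone had one. Over all genes the share was 55.9 to 62.4%. Each of these genes but Kdr had a CpG ratio under 0.4, a class in which 15.9 to 20.9% had H3K4me3. Counts of 0 in lists this short lie near that share and do not show that these cells were absent. Of 6 fibroblast genes 5 had an H3K4me3 peak at a start in EA-HFSCs (Col1a1, Col1a2, Pdgfra, Dcn and Twist2), 3 in LC-HFSCs (Col1a1, Col1a2 and Pdgfra), 4 in nEA-HFSCs (Col1a1, Col1a2, Pdgfra and Twist2) and 3 in nLC-HFSCs (Col1a1, Pdgfra and Twist2). Of 4 Merkel cell genes 3 had one in EA-HFSCs and nEA-HFSCs (Atoh1, Isl1 and Sox2), 1 in LC-HFSCs (Atoh1) and 2 in nLC-HFSCs (Atoh1 and Isl1). Kdr and Atoh1 had H3K27me3 at the same start in all 4 lists. Pdgfra, Twist2 and Isl1 had both marks in EA-HFSCs, nEA-HFSCs and nLC-HFSCs, Col1a1 in nEA-HFSCs and nLC-HFSCs, and Sox2 in nEA-HFSCs. The other H3K4me3 calls at these genes had no H3K27me3 at the same start. Of the genes with such calls, Col1a1, Col1a2 and Dcn had CpG ratios of 0.3, 0.211 and 0.239, in the class with H3K4me3 at 15.9 to 20.9% of genes. Pdgfra and Sox2 had ratios of 0.418 and 0.841. Whether any H3K4me3 at these genes came from those cells was not tested. In these lists, then, H3K4me3 was not detected in any population at Tyr, Tyrp1, Sox10, Ednrb or Mc1r. Nor was it detected at the start of Mlana or at the downstream starts of Mitf. It was detected at the first start of Mitf in all 4 lists and at Kit in both early anagen lists. Dct had it in EA-HFSCs, LC-HFSCs and nEA-HFSCs at low scores (97.3, 73.5 and 73.4), and the 3′ end of Mlana in all lists but LC-HFSCs. Of the other pigment cell genes, Trpm1 had it in nEA-HFSCs alone (score 217) and Gpr143 in EA-HFSCs alone (65.2). The share of melanocytes in the sorted cells was not measured.

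**Figure D5:**
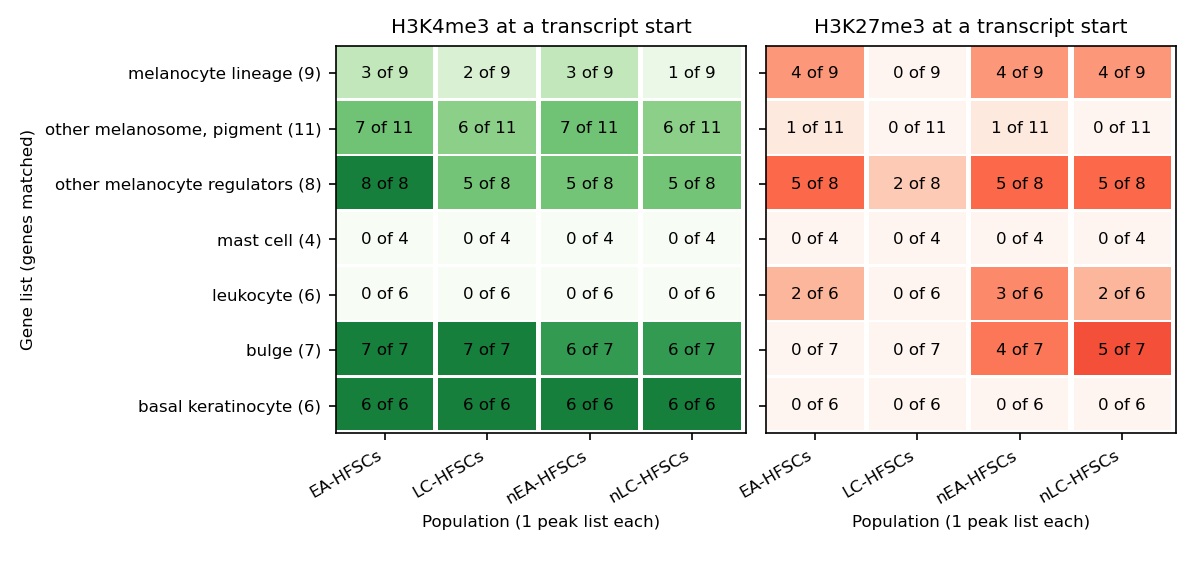
The number of genes of each list with an H3K4me3 peak (left, green) or an H3K27me3 peak (right, red) at a transcript start, out of the genes matched, in each of the 4 populations; darker cells hold a larger share. The melanocyte lineage genes have 1 to 3 of 9 in green and 4, 0, 4 and 4 of 9 in red, whereas basal keratinocyte genes have 6 of 6 in green and 0 of 6 in red in every population.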

How the data were processed

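The 9 genes and all gene lists were chosen with earlier results of these data known. Per the labels, the submitters' processing notes name Trimmomatic 0.22, Bowtie2, MACS, HOMER and Cuffdiff. The authors trimmed single-end reads, aligned them to mm9, pooled independent experiments and called peaks with the population's own IgG library as background, at p-value thresholds of 1e-05 (H3K4me3) and 0.0001 (H3K27me3 and H3K9me3). The deposited values are a score for each peak, and the exact read depth of each list is unknown, so no interval could be given and a missing peak sets no upper limit.

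Overlaps were computed with Python 3.11.15 and numpy 2.4.6 and plots drawn with matplotlib 3.10.9. Genes and sequence came from GENCODE vM1 and NCBIM37, the assembly of mm9. A peak counted when it shared at least 1 bp with 3000 bp to either side of any transcript start, or with the gene body. On simulated peaks, overlaps were exact in 3 of 3 settings, each with 500 genes. The 733 peaks on unplaced sequence were not used for genes. The text names all 9 members, and genes of other lists where 5 or fewer had a peak. Genes named beyond that, and the Mitf intron site, the shares of similar-scoring peaks and the neighbouring starts, were chosen after values had been seen. The result of 1 further gene list is not reported here. No test was made between lists. Alternatives were a score of at least 100, the same number of top-scoring peaks for each mark (14718, 1909 and 1414), at least 50% of a peak inside, peaks less than 1000 bp apart merged, a window of 1000 bp, and the gene start only.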

Additional observations from a re-analysis of the deposited data

Results flagged for a closer look

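H3K9me3 over the gene bodies moved in opposite directions between the stages in HFSCs and non-HFSCs. The number of members with a peak changed by -4 from EA-HFSCs to LC-HFSCs (from 4 to 0) and by 1 from nEA-HFSCs to nLC-HFSCs (from 2 to 3). The share of all genes with such a peak moved the same way, from 51.1% to 1.46% in HFSCs and from 13.4% to 22.2% in non-HFSCs, so the movement is not particular to the members. Mitf was the member that showed both directions, with a change of -1 in HFSCs, from a peak in EA-HFSCs to none in LC-HFSCs, and the opposite in non-HFSCs. With 1 list for each population the difference between these changes was not tested. The H3K9me3 lists of LC-HFSCs and EA-HFSCs held 1414 and 42277 peaks and those of nEA-HFSCs and nLC-HFSCs 17873 and 18236, and the 2 Mitf peaks of nLC-HFSCs scored 40.9 and 40.1, next to the lowest score of 40.0.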

How the results depend on the processing

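Of the 28 counts of members, 28 stayed within 1.5 times when peaks less than 1 kb apart were merged, 23 with at least 50% of the peak inside, 15 when scores of 100 or more were required and 11 when lists of a mark were cut to equal length by score, and of the 16 counts at a start, 13 did with a window of 1000 bp and 15 with the gene start only. Of 26 calls of a member at a start, 26, 20, 14, 12, 22 and 25 were kept under these settings. In the order EA-HFSCs, LC-HFSCs, nEA-HFSCs, nLC-HFSCs, scores of 100 or more left H3K4me3 at a start of 1 member in LC-HFSCs and 1 in nEA-HFSCs and over the body of 2, 1 and 1 in the first 3 lists, H3K27me3 over the body of 3 in nEA-HFSCs, H3K9me3 at or over 0 members in every list, and both H3K4me3 and H3K27me3 at 0 in nEA-HFSCs. Lists of equal length left H3K4me3 at a start of 1 in nEA-HFSCs and over the body of 2 in EA-HFSCs, 1 in nEA-HFSCs and 1 in nLC-HFSCs, H3K27me3 at or over 1 in EA-HFSCs and 2 in nLC-HFSCs and over the body of 3 in nEA-HFSCs, H3K9me3 at or over 0 members, and both H3K4me3 and H3K27me3 at 0 in EA-HFSCs and nEA-HFSCs. With at least 50% of the peak inside, H3K9me3 lay at a start of 1, 0, 1 and 0 members and H3K27me3 over the body of 3 in nEA-HFSCs and 1 in nLC-HFSCs. With a window of 1000 bp H3K9me3 lay at a start of 1, 0, 1 and 0 members, and with the gene start only at 1 in nEA-HFSCs. Apart from the merging, these settings only take peaks or sequence away, so that counts could not rise under them and counts of 0 could not change. The LC-HFSC list is the shortest for every mark, so lists of equal length left all its counts and calls as they were. Counts and calls fixed in this way are included among those that stayed or were kept. The exact read depth of each list is unknown, which limits every missing call. No paired analysis was possible because each population and mark has 1 pooled list and the labels give no replicate numbers.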
